A study of Mus musculus with 383 samples.

Results

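The genes described are 3 groups of receptor tyrosine kinases and their ligands, 8 genes of the 49585 in the count table: the TAM receptor genes Axl and Tyro3 with the ligand genes Gas6 and Pros1, the related receptor genes Met and Mst1r, and the discoidin domain receptor genes Ddr1 and Ddr2. They were chosen by name, not by level, and each was found once in the table. The cells came from mouse skin squamous cell carcinomas of Lgr5CreER animals, which also carried floxed p53 (p53fl/fl) and the Rosa26-YFP+/+ reporter, so that all cells share these alleles and tumours start from cells that express Lgr5. Tumour cells positive for YFP were parted by flow cytometry into Epcam-negative (Epcam-) and Epcam-positive (Epcam+) cells, Epcam being an adhesion molecule on epithelial cells. Single cells were sequenced by Smart-seq2, which amplifies full-length cDNA from each cell. After quality filters 47 of 310 Epcam- cells and 8 of 70 Epcam+ cells were left out, so that 84.8% and 88.6% of the cells were kept, 62 of them Epcam+. The number of tumours or animals is not given in the labels, so each population was treated as 1 sample, no test between them was made, and the intervals given cover counting error only.

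Axl, Tyro3 and Mertk are receptor tyrosine kinases that bind Gas6, and Tyro3 and Mertk also bind protein S, the product of Pros1. Axl is known for its link to mesenchymal cell states in carcinomas. Met is the receptor of hepatocyte growth factor (Hgf) and drives the scattering and migration of epithelial cells, including keratinocytes in wounds. Mst1r, also called Ron, is its relative and binds macrophage-stimulating protein (Mst1). Ddr1 and Ddr2 bind triple-helical collagen rather than a soluble growth factor. Ddr1 is known mainly from epithelia and Ddr2 mainly from mesenchymal cells.

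Kept Epcam- cells had 104330 to 900492 reads in genes (median 414731), and kept Epcam+ cells 109743 to 730528 (median 413142). Levels are counts per 1000000 gene reads (CPM), summed over the cells of a population, and a ratio is the log2 of (CPM + 1) in Epcam- over Epcam+ cells. The Epcam- cells occupied rows D to P of the plate and the Epcam+ cells rows A to C, by the labelled well coordinates, so population and row cannot be told apart. Columns 1 to 12 and columns 13 to 24 each held both kinds of cell, which gives 2 separate readings of a ratio. Wells set up with 0 cells were not empty of reads. The one from the Epcam- sort had 4018 gene reads, 3 of them from Axl. The one from the Epcam+ sort had 99241, with 32 from Axl, 8 from Met, 4 from Ddr1, 1 from Mst1r and 0 from the other members. It had reads in 8248 genes, more than the median Epcam- cell (6584) or Epcam+ cell (6996), and whether it held a cell was not tested. Per spike-in read these wells had 0.312 and 12.1 gene reads, whereas the median was 157.2 in Epcam- and 221.1 in Epcam+ cells.

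Of the 8 genes, 7 had at least 10 CPM in either population, Ddr2 in Epcam- cells only and Mst1r in Epcam+ cells only. Axl, Gas6, Pros1 and Ddr2 were 2-fold or more higher in Epcam- cells, 4 of these 7, against 15.3% of the 9574 genes at that level. Mst1r was 2-fold or more lower in Epcam- cells, 1 of the 7, against 12.9% of all genes. With levels scaled to the spike-ins, 11.1% of genes were 2-fold or more higher and 23.02% lower in Epcam- cells. Met and Ddr1 were within 2-fold of equal. Tyro3 did not reach 10 CPM in either population. The median ratio was 1.99 over the 7 genes and -0.08 over the 9574 genes. In bulk sums such as these, fewer cells with a transcript and less of it per cell cannot be told apart, so shares of cells and levels per cell are given beside them.

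**Figure D1:**
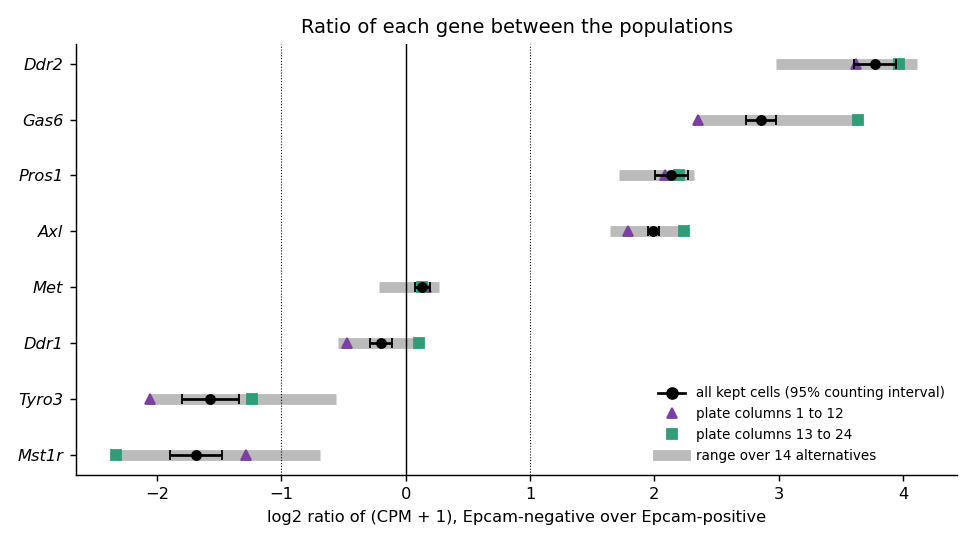
Log2 ratio of (CPM + 1) in Epcam- over Epcam+ cells for each gene (black, with the 95% counting interval), with the ratios in plate columns 1 to 12 (triangles) and 13 to 24 (squares) and the range over 14 alternatives (grey); dotted lines mark 2-fold. Ddr2, Gas6, Pros1 and Axl lie right of 2-fold under every setting drawn, and Met and Ddr1 lie between the dotted lines.

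Axl, on chromosome 7 from 25757273 to 25788705 on the minus strand of GRCm38 (ENSMUSG00000002602.16), had the highest level of the 8 genes in both populations. Its level was 678 CPM (673 to 683) in Epcam- cells and 169.8 CPM (164.7 to 175.005) in Epcam+ cells, a ratio of 1.99 (1.95 to 2.04). Single Epcam- cells ranged between 0 and 4056 CPM with a median of 632, and single Epcam+ cells between 0 and 1581 CPM with a median of 84.998. The ranges overlapped, but 4 of 62 Epcam+ cells lay above the Epcam- median, and 93.9% of Epcam- cells lay above the Epcam+ median. With each cell thinned to 100000 reads and a gene called present at 5 or more of them (50 CPM), Axl was present in 94.7% of Epcam- cells (91.2% to 97.1%) and in 58.1% of Epcam+ cells (44.8% to 70.5%). Axl was thus spread over nearly all Epcam- cells: the 26 with most of its reads held 24.8% of them. It was also a transcript of the Epcam+ population, where 36 cells had it present. The median cell had 91.9 Axl reads per 1000 spike-in reads in the Epcam- and 18.3 in the Epcam+ population, and the wells with 0 cells had 0.233 and 3.89.

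Tyro3, the second TAM receptor, on chromosome 2 from 119797733 to 119818104 (ENSMUSG00000027298.17), was scarce. It had 1.83 CPM (1.58 to 2.10) in Epcam- cells and 7.41 CPM (6.38 to 8.56) in Epcam+ cells. The lowest and the median cell had 0 CPM in both populations, and the highest had 215.8 CPM in the Epcam- and 129.2 CPM in the Epcam+ population. It was present in 1 Epcam- and in 4 Epcam+ cells. The ratio was -1.57 (-1.80 to -1.34), opposite in sign to that of Axl. A single Epcam- cell held 41.3% of its reads there, and without it the Epcam- level was 1.08 CPM. Mertk, the other receptor of the family and not one of the 8 genes, had 12.98 CPM in Epcam- and 0.564 CPM in Epcam+ cells.

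The ligand genes were higher in Epcam- cells, and less evenly spread than Axl. Gas6, on chromosome 8 from 13465374 to 13494490 (ENSMUSG00000031451.6), encodes the vitamin K-dependent ligand of all TAM receptors. It had 161.6 CPM (159.2 to 163.996) in Epcam- and 21.5 CPM (19.7 to 23.4) in Epcam+ cells, a ratio of 2.86 (2.74 to 2.98). Single cells ranged between 0 and 2035 CPM with a median of 31.9 in the Epcam- population, and between 0 and 253.2 CPM with a median of 0 in the Epcam+ population. Gas6 was present in 46.01% of Epcam- cells (39.9% to 52.2%) and in 12.9% of Epcam+ cells (5.74% to 23.9%). The groups overlapped at the low end, and 50 Epcam- cells lay above the highest Epcam+ cell. The 26 Epcam- cells with most Gas6 reads held 58.04% of them. Cells in columns 1 to 12 gave a ratio of 2.35, and those in columns 13 to 24 one of 3.64.

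Pros1, on chromosome 16 from 62854307 to 62929346 (ENSMUSG00000022912.8), encodes protein S, an anticoagulant cofactor as well as a TAM ligand. It had 81.5 CPM (79.8 to 83.2) in Epcam- and 17.8 CPM (16.2 to 19.5) in Epcam+ cells, a ratio of 2.13 (2.00 to 2.27). Single cells ranged between 0 and 1254 CPM with a median of 25.4 in the Epcam- population, and between 0 and 198.9 CPM with a median of 0 in the Epcam+ population. It was present in 41.8% of Epcam- cells (35.8% to 48.04%) and in 16.1% of Epcam+ cells (8.02% to 27.7%). As with Gas6, the populations overlapped, and 32 Epcam- cells lay above the highest Epcam+ cell.

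Met did not follow Axl. Met, on chromosome 6 from 17463800 to 17573980 (ENSMUSG00000009376.15), had 118.6 CPM (116.5 to 120.7) in Epcam- and 107.9 CPM (103.9 to 112.1) in Epcam+ cells, a ratio of 0.13 (0.07 to 0.19). Single cells ranged between 0 and 2469 CPM with a median of 33.8 in the Epcam- population, and between 0 and 1267 CPM with a median of 53.4 in the Epcam+ population. It was present in 46.4% of Epcam- cells (40.2% to 52.6%) and in 48.4% of Epcam+ cells (35.5% to 61.4%). The populations overlapped over nearly their whole range, with 1 Epcam- cell above the highest Epcam+ cell. The sign of the ratio changed with the scaling: it was -0.21 when levels were scaled to the spike-ins and -0.01 when the CPM of single cells were averaged.

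Mst1r, on chromosome 9 from 107906873 to 107920383 (ENSMUSG00000032584.12), had 2.45 CPM (2.16 to 2.77) in Epcam- and 10.1 CPM (8.89 to 11.4) in Epcam+ cells, a ratio of -1.69 (-1.89 to -1.48). The lowest and the median cell had 0 CPM in both populations, and the highest had 486 CPM in the Epcam- and 101.9 CPM in the Epcam+ population. It was present in 5 Epcam- cells (1.90%, 0.620% to 4.38%) and in 7 Epcam+ cells (11.3%, 4.66% to 21.9%). Most cells lacked it: 92.8% of Epcam- and 69.4% of Epcam+ cells had no Mst1r read at all. One Epcam- cell held 38.02% of the reads there, and without it the level was 1.52 CPM. Without the Epcam+ cell that held most there, Mst1r had 8.48 CPM in Epcam+ cells, under the minimum of 10 CPM. The 2 sets of columns gave ratios of -1.29 (1 to 12) and -2.33 (13 to 24). The ratio was -0.69 with a pseudocount of 10 CPM, which ends the 2-fold difference.

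The collagen receptors parted in the same comparison. Ddr2, on chromosome 1 from 169972307 to 170110762 (ENSMUSG00000026674.9), had the highest ratio of the 8 genes. It had 144.995 CPM (142.7 to 147.3) in Epcam- and 9.70 CPM (8.52 to 11.01) in Epcam+ cells, a ratio of 3.77 (3.60 to 3.94). Single cells ranged between 0 and 1253 CPM with a median of 92.4 in the Epcam- population, and between 0 and 150.1 CPM with a median of 0 in the Epcam+ population. The groups overlapped less than for any other gene here by the count of Epcam- cells above the highest Epcam+ cell, which was 91 for Ddr2. It was present in 57.03% of Epcam- cells (50.8% to 63.1%) and in 6 Epcam+ cells (9.68%, 3.63% to 19.9%). With a pseudocount of 10 CPM the ratio was 2.98.

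Ddr1, on chromosome 17 from 35681567 to 35704621 (ENSMUSG00000003534.17), had 43.4 CPM (42.2 to 44.7) in Epcam- and 50.0 CPM (47.3 to 52.9) in Epcam+ cells. The ratio was -0.20 (-0.29 to -0.11), and its sign was not stable: cells in columns 1 to 12 gave -0.47, and cells in columns 13 to 24 gave 0.11. Single cells ranged between 0 and 498 CPM with a median of 15.6 in the Epcam- population, and between 0 and 266.4 CPM with a median of 20.2 in the Epcam+ population. It was present in 31.6% of Epcam- cells (25.99% to 37.6%) and in 33.9% of Epcam+ cells (22.3% to 47.01%). Of the exon bases of Ddr1, 4.53% also lie in an antisense gene, which had 0 reads in both populations. The overlaps of Gas6 and Ddr2 with a gene on the other strand were 1.33% and 0.97% of their exon bases.

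**Figure D2:**
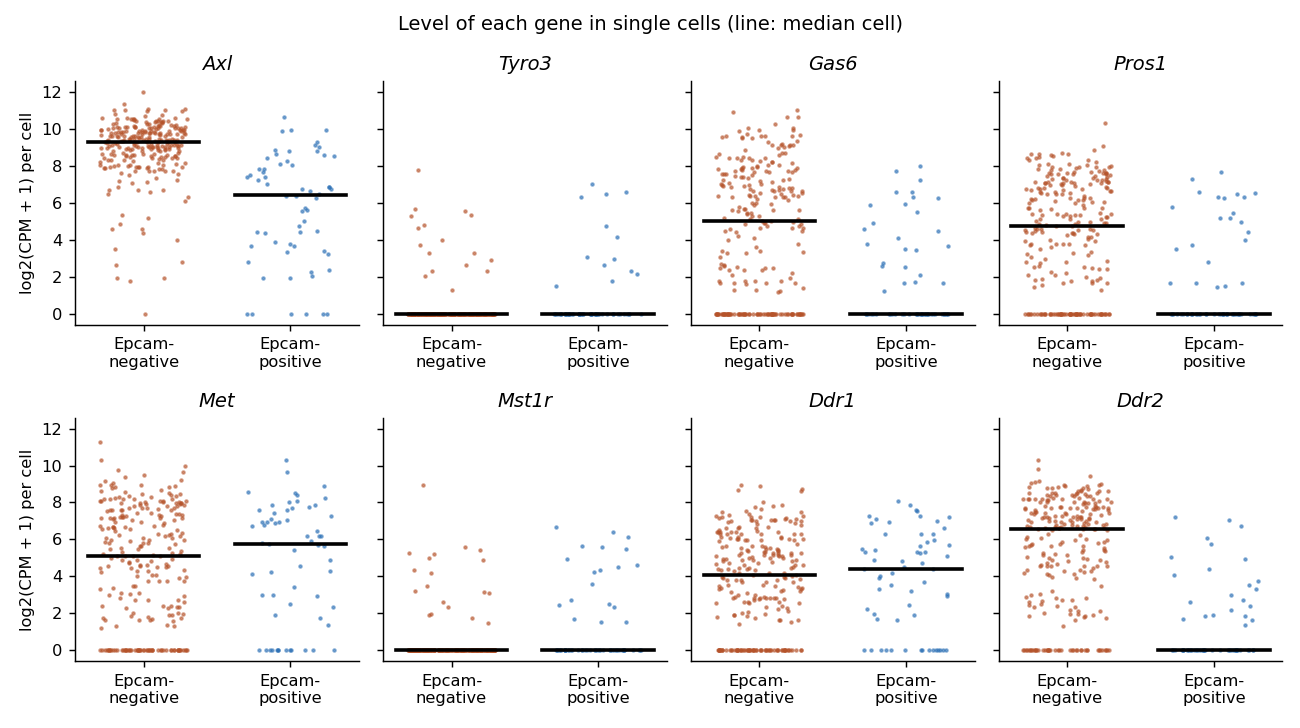
Level of each gene in every kept cell as log2(CPM + 1), Epcam- cells left of the 62 Epcam+ cells, with the median cell as a line. Axl sits high in nearly all Epcam- cells, Gas6, Pros1 and Ddr2 range widely there and are at 0 in the median Epcam+ cell, and Met spans much the same range in both, with medians of 33.8 and 53.4 CPM.

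Levels of different genes were compared per kilobase of merged exons. On that scale Axl led in both populations, at 134.8 CPM per kb in Epcam- and 33.7 in Epcam+ cells, and it was the highest of 58 receptor tyrosine kinase genes in each. In Epcam- cells Gas6 followed at 63.4 CPM per kb and Pros1 at 19.9. Ddr2 (15.4 to 15.9) and Met (15.2 to 15.7) had overlapping intervals there, Ddr1 was lower at 9.10, and Mst1r and Tyro3 were at 0.489 and 0.295. In Epcam+ cells the order was another one, with Met in second place at 14.1 CPM per kb and Ddr1 behind it at 10.5. Gas6 at 8.42, Pros1 at 4.35 and Mst1r at 2.02 came next, and Tyro3 (1.03 to 1.38) and Ddr2 (0.919 to 1.19) had overlapping intervals at the low end. Among the 58 kinases Ddr2 ranked 7 in Epcam- and 24 in Epcam+ cells, and Met ranked 8 and 4.

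The upstream sequences of the 4 genes that were higher in Epcam- cells are shown because these genes were higher in the same population. They are the 250 bases before the start site in RefSeq (build GRCm38.p6), 5′ to 3′ on the gene's strand, and none of them overlaps an exon of GENCODE vM21. The windows are chr7:25788734-25788983 on the minus strand for Axl, chr8:13494536-13494785 on the minus strand for Gas6, chr16:62854057-62854306 on the plus strand for Pros1 and chr1:170088945-170089194 on the minus strand for Ddr2, whose RefSeq start lies inside the longer GENCODE gene. Capitals mark the GC box GGGCGG or its other strand CCGCCC, to which Sp factors bind.
Axl: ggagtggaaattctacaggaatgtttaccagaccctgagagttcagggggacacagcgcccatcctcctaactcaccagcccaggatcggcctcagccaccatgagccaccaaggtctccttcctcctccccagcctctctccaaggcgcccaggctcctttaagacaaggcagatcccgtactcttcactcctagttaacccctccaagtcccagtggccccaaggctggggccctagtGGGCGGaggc
Gas6: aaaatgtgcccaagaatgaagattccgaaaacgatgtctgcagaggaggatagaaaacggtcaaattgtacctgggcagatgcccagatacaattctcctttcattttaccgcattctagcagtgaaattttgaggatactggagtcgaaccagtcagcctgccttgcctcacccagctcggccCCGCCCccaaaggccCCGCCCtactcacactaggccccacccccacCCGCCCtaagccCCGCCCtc
Pros1: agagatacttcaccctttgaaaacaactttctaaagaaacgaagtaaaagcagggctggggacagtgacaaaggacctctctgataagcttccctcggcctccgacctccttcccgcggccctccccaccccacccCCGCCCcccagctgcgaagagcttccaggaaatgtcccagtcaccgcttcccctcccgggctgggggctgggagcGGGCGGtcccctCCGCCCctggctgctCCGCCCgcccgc
Ddr2: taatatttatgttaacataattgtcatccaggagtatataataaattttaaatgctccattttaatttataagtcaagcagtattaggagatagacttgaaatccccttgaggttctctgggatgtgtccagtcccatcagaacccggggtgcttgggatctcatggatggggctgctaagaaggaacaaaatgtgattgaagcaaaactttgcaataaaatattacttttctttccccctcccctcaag
The Axl window holds 1 GC box, those of Gas6 and Pros1 hold 4 each, and that of Ddr2 holds 0, where 32.7% of 32851 promoter windows of that length hold at least 1. As the Ddr2 window lies inside the GENCODE gene, its count does not describe the bases before the GENCODE start, which were not read. The E-box CAGGTG or CACCTG, the motif of Snail and Zeb factors, was in 0 of these 4 windows and in 17.2% of all windows. The AP-1 motif TGACTCA or TGAGTCA was in 0 of the 4 and in 4.46% of all windows. Over all 8 genes, which matched 12 RefSeq start sites, an AP-1 motif stood at Met (1) and at 1 of 4 Ddr1 start sites, and an E-box at that same Ddr1 site. GC boxes also stood before the genes not higher in Epcam- cells. Tyro3 had 3, Met 3, the Mst1r start sites 2 and 0, and the Ddr1 start sites 1, 0, 1 and 3. The windows of these genes overlap exons in part. The GC content was 60% for Axl, 54.8% for Gas6, 64.4% for Pros1 and 37.6% for Ddr2. The motifs do not overlap each other, and a match is a description of letters only.

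Most cells of both populations held more than 1 of the 6 receptors. In Epcam- cells 2 receptors were most often present together, in 44.9% of cells (38.8% to 51.1%), and 3 in 78 cells (29.7%). In Epcam+ cells 1 receptor was present in 19 cells (30.6%), 2 in 17 and 3 in 17. None of the 6 was present in 4 Epcam- cells (1.52%, 0.416% to 3.85%) and in 9 Epcam+ cells (14.5%, 6.86% to 25.8%). The most frequent set in Epcam- cells was Axl with Ddr2 and no other (62 cells, 23.6%), followed by Axl, Met and Ddr2 (43 cells). In Epcam+ cells it was Met alone (10 cells, 16.1%), and the 9 cells with none came next. Sets of 4 and of 5 were present in 23 and 2 Epcam- cells, and sets of 4 or more in 0 Epcam+ cells, and the 0 allows a share of up to 4.84% (3 counts), or 5.78% as the exact upper limit drawn in the plot of receptors per cell.

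**Figure D3:**
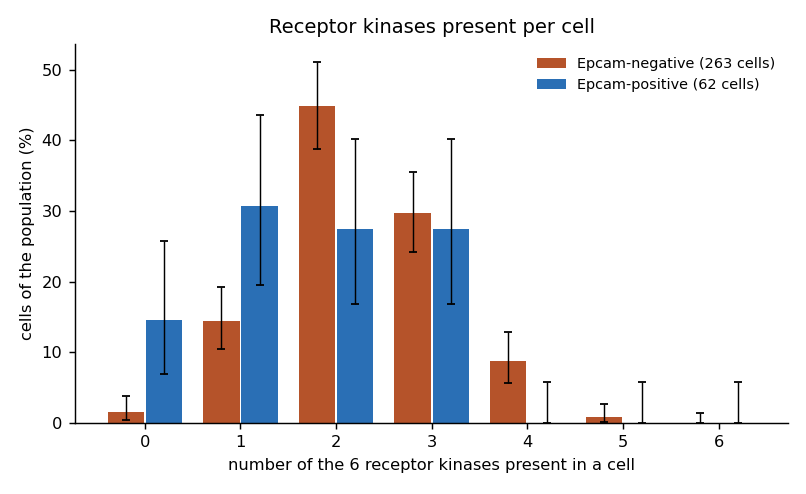
Share of cells (%) of each population by how many of Axl, Tyro3, Met, Mst1r, Ddr1 and Ddr2 were present, with exact 95% binomial intervals. Epcam- cells peak at 2 receptors (44.9%) and Epcam+ cells at 1 (30.6%), with 14.5% of Epcam+ cells at 0.

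Receptor and ligand transcripts occurred together in single cells about as often as their separate shares give. Axl and Gas6 were both present in 44.5% of Epcam- cells (38.4% to 50.7%), beside a product of the single shares of 43.6%, and in 5 Epcam+ cells (8.06%), beside 7.49%. Of Epcam- cells 50.2% had Axl without Gas6, and 4 cells had Gas6 without Axl. Axl and Met were both present in 44.1% of Epcam- and 29.03% of Epcam+ cells, beside products of 43.9% and 28.1%. All but 1 of the 150 Epcam- cells with Ddr2 present also had Axl. The ligand genes Gas6 and Pros1 were both present in 64 Epcam- cells (24.3%, 19.3% to 30.0%), beside a product of 19.2%. Gas6 and Met went the other way, with 45 such cells (17.1%, 12.8% to 22.2%) beside 21.3%. Ddr1 and Ddr2 were both present in 43 Epcam- cells (16.3%), beside a product of 18.0%. Ddr2 without Ddr1 was present in 40.7% of Epcam- cells and Ddr1 without Ddr2 in 15.2%. In Epcam+ cells both were present in 2, Ddr2 without Ddr1 in 4 and Ddr1 without Ddr2 in 19. These cells share 1 plate, so the shares describe these libraries only.

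Within the Epcam- population the members differed between cells with and without other transcripts. Krt14, a basal keratin, was present in 48.3% of these cells and not in 51.7%, with median depths of 397230 and 429790 gene reads. Ddr2 was at 84.5 CPM (81.96 to 87.1) in cells with Krt14 and at 197.5 CPM (193.8 to 201.1) in cells without it, and it was present in 44.1% (35.3% to 53.2%) and 69.1% (60.6% to 76.8%) of them. The levels were 84.3 and 189.98 CPM for columns 1 to 12, and 84.8 and 205.3 CPM in columns 13 to 24, so that Ddr2 was lower with Krt14 in both sets of columns. Met showed no such gap, at 118.2 CPM with Krt14 and 118.9 CPM without. Axl was at 611 and 737 CPM, but at 587 and 580.4 CPM in columns 1 to 12, so its lower level with Krt14 was not seen in both. Even in cells with Krt14 the level of Axl (611 CPM), Gas6 (119.1 CPM), Pros1 (71.5 CPM) and Ddr2 (84.5 CPM) was above that of Epcam+ cells, with ratios of 1.84, 2.42, 1.95 and 3.00.

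The proliferation genes Mki67 or Top2a were present in 44 of the Epcam- cells (16.7%). Median depths were 475283 gene reads in these and 405793 in the others, and presence was called at equal depth after thinning. Met was at 201.5 CPM (195.4 to 207.8) in these and 99.4 CPM (97.3 to 101.5) in other cells, and present in 68.2% (52.4% to 81.4%) and 42.01% (35.4% to 48.8%) of them. Gas6 went the other way, at 58.8 CPM (55.5 to 62.3) in these and 185.3 CPM (182.5 to 188.2) in other cells, and present in 25% (13.2% to 40.3%) and 50.2% (43.4% to 57.04%). Pros1 did likewise, at 41.4 and 90.7 CPM. These directions held in both sets of columns. For Met the values were 184.99 and 80.2 CPM in columns 1 to 12 and 225.1 and 126.4 CPM in columns 13 to 24. For Gas6 they were 23.5 and 168.96 CPM and then 109.3 and 208.5 CPM, and for Pros1 42.3 and 92.1 CPM and then 40.01 and 88.9 CPM. Without the cell of this group with most of its reads Gas6 was at 39.7 CPM.

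**Figure D4:**
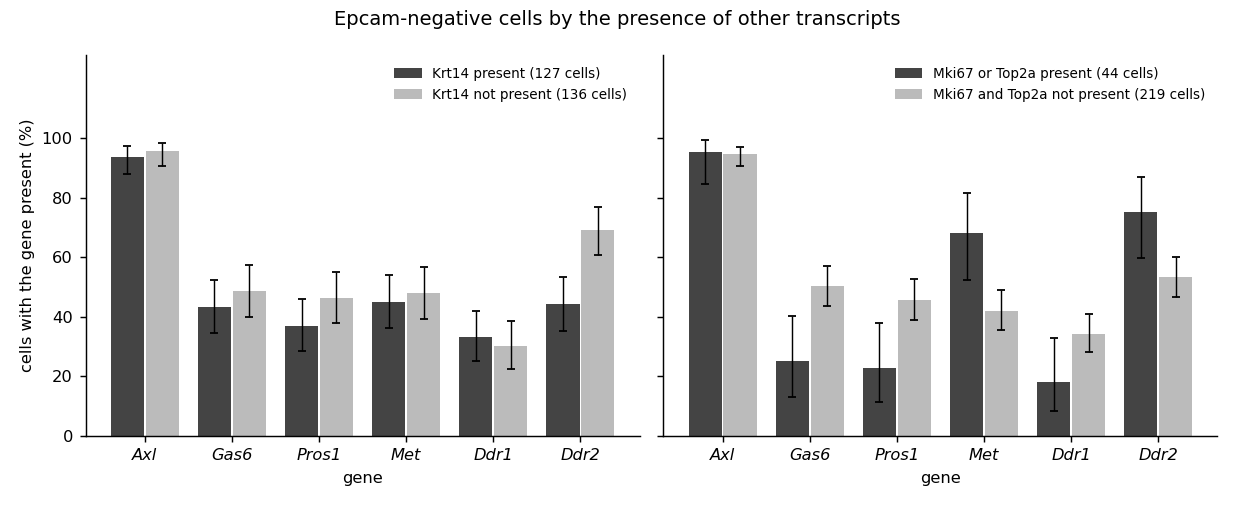
Share of Epcam- cells (%) in which each gene was present, with exact 95% binomial intervals, split by the presence of Krt14 (left) and of Mki67 or Top2a (right). Ddr2 is at 44.1% with Krt14 and 69.1% without it, and in cells with Mki67 or Top2a Met is at 68.2% against 42.01%, and Gas6 at 25% against 50.2%.

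The surface markers Itgav, Itgb3 and Vcam1 have been used to part Epcam- tumour cells. In the 57 Epcam- cells with none of their transcripts present, Ddr2 was at 109.1 CPM and present in 33.3% (21.4% to 47.1%), and in the 78 cells with 2 of them it was at 158.7 CPM and present in 64.1% (52.4% to 74.7%). The 120 cells with 1 of them were close to those with 2 for Ddr2, at 147.3 CPM and present in 63.3%. In the 8 cells with all 3 it was at 170.9 CPM and present in 62.5% (24.5% to 91.5%). Leaving out the cell with most reads, Ddr2 was at 108.2 CPM in the cells with 3 markers and 94.1 CPM in those with 0. Axl did not follow the number of markers, at 505 CPM with 0, 743 CPM with 1, 690.4 CPM with 2 and 575 CPM with 3. Median depths were 334092, 417488, 449127 and 474664 gene reads. Among Epcam+ cells, Axl was at 211.996 CPM in the 30 with Vim present and at 129.2 CPM in the 32 without. It was present in 63.3% (43.9% to 80.1%) and 53.1% (34.7% to 70.9%) of them, with overlapping intervals. Ddr2 did not part these cells, at 10.2 and 9.24 CPM. In the 11 Epcam- cells with the Epcam transcript present, Axl was at 268.9 CPM, Gas6 at 54.3 CPM and Ddr2 at 27.6 CPM. Leaving out the top cell for each gene, they were at 146.6, 32.7 and 5.45 CPM. In the other Epcam- cells they were at 695, 165.9 and 149.7 CPM.

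Across the kept Epcam- cells at 100000 thinned reads, the genes most like a member by Spearman's rho, out of 5040 genes, were weakly to moderately correlated. They were Ppfibp1, Cald1 and Itgb1 for Axl (0.41, 0.41 and 0.38), Cst3, Timp2 and Aspn for Gas6 (0.44, 0.40 and 0.40), and Fstl1, Mfge8 and Col12a1 for Pros1 (0.35, 0.34 and 0.33). For Ddr2 they were Col1a2, Fkbp14 and Pcdh19 (0.41, 0.37 and 0.35). Col1a2 encodes a chain of type I collagen, a ligand of Ddr2. For Met they were Hmga2, Wnk1 and Cav1 (0.37, 0.36 and 0.35). No gene reached 0.3 for Ddr1. Across the 62 Epcam+ cells Hmga2, a chromatin protein of proliferating and transformed cells, was again the gene most like Met (0.55). Map1b, Arl13b and Crip1 were most like Axl there (0.51, 0.50 and 0.48), and Pigx, Igbp1 and Ccs most like Ddr1 (0.47, 0.46 and 0.46), over fewer cells and 5238 genes. The strongest negative values in Epcam+ cells were of like size, at -0.52 for Axl, -0.52 for Met and -0.46 for Ddr1. In Epcam- cells they were -0.25 for Axl, -0.33 for Gas6, -0.28 for Pros1, -0.33 for Met and -0.37 for Ddr2. Whether the top values in either population exceed those expected by chance among so many genes was not tested.

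The other genes of these pathways were taken from lists of ligands, partners and signalling proteins. Their counts stand beside shares of 15.3% higher and 12.9% lower by 2-fold or more in Epcam- cells over the 9574 genes. Collagen genes were higher in Epcam- cells: 12 of 14 had at least 10 CPM, and all 12 were 2-fold or more higher there. Their median ratio was 5.73. Of these 12, Col5a1, Col6a3 and Col11a1 reached 10 CPM in Epcam- cells only, so they could be counted in that direction only. Col1a1 had 2593 CPM in Epcam- and 15.98 CPM in Epcam+ cells (7.33 CPM without the top Epcam+ cell). Col6a3 had 331 CPM in Epcam- and 1.93 CPM in Epcam+ cells (0.611 CPM without the Epcam+ cell with most of its reads), and Col3a1 4756 and 31.2 CPM (13.1 CPM without such a cell). For Met and Mst1r no ligand gene reached 10 CPM. Hgf had 7.51 CPM in Epcam- cells, present in 2.66% of them, and 0.322 CPM in Epcam+ cells, from 8 reads in 1 cell. Mst1 had 0.280 CPM in Epcam- cells, 93.3% of it from 1 cell, and 0.0805 CPM in Epcam+ cells.

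Proteins that process these ligands split in direction. Of the list of ligands, activating proteases and inhibitors, 5 of 10 genes had at least 10 CPM: St14, Plau, Plat, Spint1 and Spint2, none of them a ligand. In Epcam- cells 3 were 2-fold or more lower and 1 2-fold or more higher, with a median ratio of -3.57. St14 and Spint1 reached 10 CPM in Epcam+ cells only, so they could be counted as lower only. Spint1 and Spint2 encode inhibitors of the proteases that activate Hgf. Spint1 was at 2.52 CPM in Epcam- and 53.6 CPM in Epcam+ cells (1.44 CPM in Epcam- cells without 1 cell), and Spint2 at 43.5 and 528 CPM. St14, the protease matriptase, was at 0.345 and 17.3 CPM, with nearly all Epcam- reads in 1 cell, without which it was at 0.00935 CPM. Plat, the tissue plasminogen activator, went against the list at 261.7 and 83.3 CPM.

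Partners of Met at the surface gave a median ratio of -0.23 over 7 of 8 genes, with 3 of them 2-fold or more lower and 1 2-fold or more higher in Epcam- cells. Itga6, the integrin alpha 6, was at 116.2 and 539.9 CPM, and the semaphorin receptor gene Plxnb1 at 6.47 and 26.01 CPM. Lrig1, which encodes a negative regulator of receptor kinases, was at 153.2 CPM in Epcam- and 32.3 CPM in Epcam+ cells. Of 17 adaptor and signalling genes with at least 10 CPM, 4 were 2-fold or more higher in Epcam- cells and 0 lower, with a median of 0.47. Over all 9574 genes the shares were 15.3% and 12.9%. Whether the small counts of these lists depart from those shares was not tested. Gab2, a docking protein, was at 13.2 and 0.765 CPM (0.492 CPM in Epcam+ cells without 1 cell), the adaptor gene Nck1 at 51.4 and 21.7 CPM, and Gab1, the docking protein of Met, at 44.4 and 20.1 CPM. Among 5 shedding genes 1 was 2-fold or more higher in Epcam- cells, the presenilin gene Psen2, at 28.6 and 9.70 CPM (6.15 CPM in Epcam+ cells without 1 cell), while Ncstn, which encodes the gamma-secretase subunit nicastrin, was at 87.4 and 62.2 CPM. Of the TAM partners, Mertk was the one 2-fold or more higher of 4, with a median of 0.85. Vkorc1, which recycles the vitamin K that Gas6 and protein S need, was at 81.1 and 41.9 CPM. Gab2, Psen2 and Mertk reached 10 CPM in Epcam- cells only, and Plxnb1 in Epcam+ cells only.

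**Figure D5:**
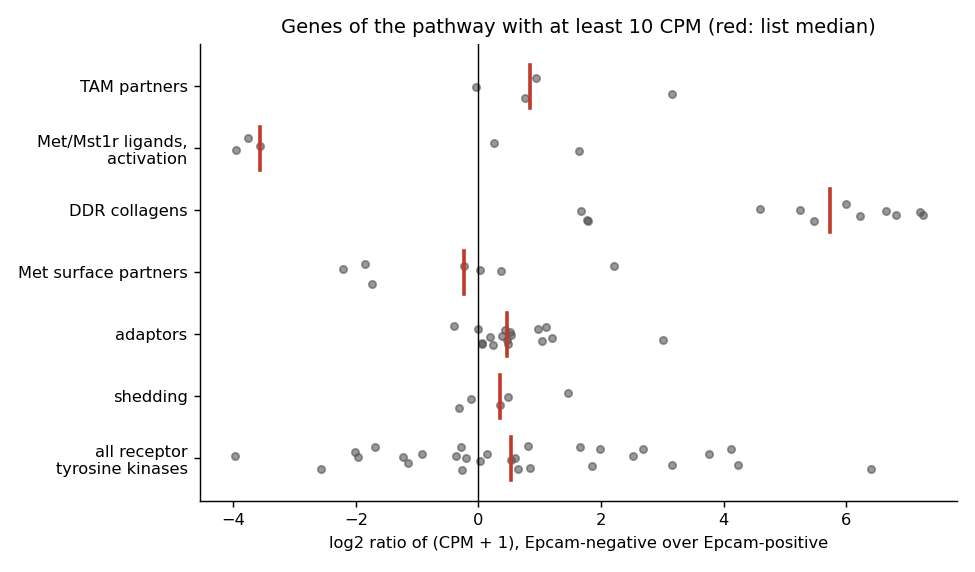
Log2 ratio of (CPM + 1) in Epcam- over Epcam+ cells for the genes of each list with at least 10 CPM in either population, with the list median in red. The 12 collagen genes all lie above 1 with a median of 5.73, and the adaptors gather near 0.47. The row of Met and Mst1r ligands and activation has a median of -3.57 over 5 protease and inhibitor genes, as no ligand gene reached 10 CPM.

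Set among all receptor tyrosine kinases, 29 of 58 had at least 10 CPM in either population. Of these, 10 were 2-fold or more higher and 7 2-fold or more lower in Epcam- cells, with a median ratio of 0.54. The shares over the 9574 genes at that level were 15.3% and 12.9%. Axl (1.99) and Ddr2 (3.77) are among the 10, and Mst1r (-1.69) among the 7. Some genes reached the minimum only in the population where they were higher. Ddr2, Pdgfrb, Epha3, Mertk, Flt1, Ror1 and Styk1 did so in Epcam- cells, and Mst1r, Fgfr3, Erbb3 and Epha1 in Epcam+ cells. Such genes could be counted in that direction only. Other than the members, the highest ratios were those of Pdgfrb (6.41), Epha3 (4.23), Pdgfra (4.13) and Mertk (3.16), and the lowest those of Fgfr3 (-3.98), Erbb3 (-2.57), Epha1 (-2.01) and Fgfr2 (-1.96). Pdgfrb, a receptor of mesenchymal and mural cells, was at 169.3 CPM in Epcam- and 1.01 CPM in Epcam+ cells (0.448 CPM without 1 cell). One cell also held much of the lower level of Pdgfra (14.1 CPM in Epcam+ cells, 8.31 without it), Epha3 (0.161 and 0.0407 CPM), Mertk (0.564 and 0.330 CPM) and, in Epcam- cells, Erbb3 (1.42 and 0.935 CPM). Fgfr3, a receptor of keratinocytes, was at 2.80 CPM and 58.8 CPM.

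Markers of other cell types that express Axl, Gas6 or Ddr2 were read beside these results. The 10 immune markers summed to 27.5 CPM in Epcam- cells (0 to 658 in single cells) and 60.2 CPM in Epcam+ cells (0 to 434). None of them reached 10 CPM in Epcam- cells, and 2 did in Epcam+ cells. These were Cd74, at 3.97 CPM in Epcam- and 30.2 CPM in Epcam+ cells, and Cd68, at 7.99 and 15.3 CPM. Adgre1, which marks macrophages, had 0 reads in both, and Ptprc, Itgam and Csf1r had 0 in Epcam+ cells. Of 6 dermal fibroblast markers 4 reached 10 CPM in Epcam- cells. They summed to 4092 CPM there (2.16 to 41720 in single cells) and to 95.97 CPM in Epcam+ cells (0 to 1246), with Pi16 at 0 in Epcam+ cells. Without the 56 Epcam- cells in which 3 or more of these markers were present, the ratios were 1.98 for Axl, 2.61 for Gas6, 2.06 for Pros1 and 3.62 for Ddr2. Dcn was present in 79.1% and Pdgfra in 60.1% of Epcam- cells, so many cells with such markers stayed in. Whether fibroblasts were among the cells was not tested. The 8 keratinocyte markers summed to 3226 CPM in Epcam- and 29044 CPM in Epcam+ cells, and the 6 mesenchymal markers to 8946 and 616 CPM, each of the 2 lists in the direction of the sort. Endothelial markers summed to 5.83 and 18.7 CPM, with Pecam1 at 4.60 and 13.3 CPM and Tek and Emcn at 0 in both. Pericyte markers to 70.7 and 23.7 CPM, melanocyte markers to 2.03 and 2.25 CPM and erythroid markers to 0.270 and 1.65 CPM.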

How the data were processed

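The deposited table gives raw counts of reads for every gene and spike-in of each well, not normalized by the authors. Per the submitters' processing notes, the tools were cutadapt 1.13, STAR 2.5.2b and HTSeq 0.6.0, on genome build GRCm38. Which annotation was counted, and whether strand was used, is not given in the sources used here, and genes that overlap another gene carry an uncertainty that was not measured. Of 49585 gene identifiers, 49326 were given a symbol from GENCODE vM21 without the version suffix, and merged exon lengths came from that annotation.

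A cell was kept with at least 100000 gene reads, 2000 genes, at most 20% mitochondrial reads and at most 50% spike-in reads. No 2 wells had identical counts. No doublet caller was used, since single cells were gated against doublets per the labels' protocols. Intervals are exact at 95%: Poisson for CPM, conditional binomial for ratios, Clopper-Pearson for shares. As there are no molecular identifiers, PCR copies count as reads, and intervals cover counting error only. A gene with 0 counts allows up to 3. The calculation was tested on simulated Poisson counts, which hold no spread between cells and no PCR copies, so the test covers the arithmetic only. TMM factors came from edgeR 4.0.16 and the rest from Python 3.11.15, numpy 2.4.6 and scipy 1.17.1.

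Named genes are all 8 members. Of each other list they are the 2 to 4 with the largest ratios and any that go against the list median by 2-fold or more, and of the receptor kinases the 4 highest and 4 lowest that are no members. Genes most like a member are the 3 with the highest rho among genes present in at least 20% of cells, for members present in at least 30%, and none under 0.3. Hgf and Mst1 fall outside this rule and were chosen after their values were seen. The members and lists were chosen with earlier results of these data known. Part of the genotype shared by all cells is not reported here.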

Additional observations from a re-analysis of the deposited data

Results flagged for a closer look

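A well set up with 50 Epcam- cells entered no comparison. Its Axl level was above that of the deeper well set up with 0 cells. Its Ddr2 level was higher too, but with overlapping exact intervals. That 0-cell well itself had reads in 8248 genes and may not have been empty. Axl was at 749 CPM (619 to 898) in the 50-cell well, among 154897 gene reads, and at 322 CPM (220.6 to 455.2) in that 0-cell well. Ddr2 was at 71.01 CPM (35.5 to 127.1) in the 50-cell well, from 11 reads, and had 0 reads in that 0-cell well, which allows up to 30.2 CPM. The 50-cell well had 8 Gas6, 9 Pros1, 16 Met, 4 Ddr1, 1 Tyro3 and 0 Mst1r reads. Met was at 103.3 CPM (59.04 to 167.7) in the 50-cell and 80.6 CPM (34.8 to 158.8) in the 0-cell well, with overlapping intervals. Ddr1 was lower in the 50-cell well, at 25.8 and 40.3 CPM, and Mst1r had 0 reads in the 50-cell and 1 read in the 0-cell well.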

How the results depend on the processing

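Over 14 alternatives that changed the cells kept, the scaling, the pseudocount or the plate columns, the count of members 2-fold or more higher in Epcam- cells was 4 each time (Axl, Gas6, Pros1 and Ddr2). With no minimum level it was also 4. The ratios ranged from 1.64 to 2.24 for Axl, 2.35 to 3.64 for Gas6, 1.72 to 2.32 for Pros1 and 2.98 to 4.11 for Ddr2. The count lower in Epcam- cells by 2-fold or more, 1 as reported (Mst1r), was 2 with no minimum level, which adds Tyro3. It was 0 with the mean of the CPM of each cell, with TMM, with the median of ratios, in plate columns 1 to 12 and without the cell with most reads, where Mst1r fell under the minimum of 10 CPM (8.73, 9.65, 9.72, 9.12 and 8.48 CPM in Epcam+ cells). It was 0 with a pseudocount of 10 CPM, where Mst1r had a ratio of -0.69 and Tyro3 -0.56. The sign changed for Met in 2 alternatives and for Ddr1 in 1. Spike-in scaling moved the median ratio of all genes to -0.45, and the share 2-fold or more higher or lower in Epcam- cells to 11.1% and 23.02%. Presence at 1 thinned read gave Axl in 98.5% of Epcam- and 82.3% of Epcam+ cells, and at 20 reads in 87.5% and 32.3%. The alternatives using Krt14 or fibroblast markers were chosen after seeing the data. No paired analysis was possible because each population is 1 sample and replicate numbers only name cells. Tyro3 and Mst1r had 0 reads in the median cell of both populations, and Gas6, Pros1 and Ddr2 in that of Epcam+ cells.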
